A study of Mus musculus with 6 samples.

Results

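The genes described here are 10 members of the fibroblast growth factor (FGF) system, out of 24125 gene entries used from the expression table of 2 mouse mammary tumor cell populations. They were taken by name because earlier results of the same comparison had placed Fgfbp1 at the head of the differences, and comprise the carrier proteins Fgfbp1 and Fgfbp3, the receptors Fgfr1, Fgfr2, Fgfr3, Fgfr4 and Fgfrl1, and the ligands Fgf1, Fgf2 and Fgf21. The members' values between the populations are therefore given as a description, and no p-value of a member is printed. Counts of members past the thresholds are given beside the shares of all genes. The study compared an aggressive with a less aggressive tumor cell population to find what regulates phenotypic differences inside a single tumor. Both populations carry GFP and came from 4T1GFP cells, a GFP-tagged line of 4T1 mammary carcinoma cells injected into the mammary fat pad of BALB/c mice, whose tumors were resected and sorted. They grew out of a culture of sorted CD140a+ fibroblasts and were sorted again by GFP.

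T1 cells (labelled 4T1A, 3 replicates) had low GFP and grew adherent with an epithelial shape. T2 cells (labelled 4T1NA, 3 replicates) had high GFP, were round and loosely attached, and were passaged like a suspension culture. Both were kept in the same serum-supplemented medium, with no treatment named, so each is a cultured population from a resected tumor rather than tumor tissue. The labels call the replicates independent without saying whether they came from separate cultures, and p-values measure the spread between these samples. Parental 4T1GFP cells are not analysed here.

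FGF ligands are secreted proteins that bind receptor tyrosine kinases on the cell surface together with heparan sulfate, and the bound receptors signal through adaptors to the MAP kinase cascade. Many FGFs are held by heparan sulfate in the extracellular matrix, and the FGF binding proteins are secreted carriers that can release them from it. In the mammary gland, epithelial FGFR2 takes part in the growth of the ducts, and FGF receptor signalling is often altered in breast tumors.

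The libraries held 18131995 to 20838345 reads on genes, and 1 read was worth 0.928 to 1.06 normalized counts, the unit used throughout (reads divided by 1 size factor per sample). Replicates differed by more than counting noise, with a chi-square per degree of freedom of 8.26 to 26.1 over all pairs within a population. The carcinoma label was checked against epithelial markers. The keratins Krt8 and Krt18 were high in both populations, at 22067 ± 1097 and 23275 ± 2627 in T1 cells and 19195 ± 1606 and 21658 ± 1762 in T2 cells (SD, n = 3 each), whereas Epcam stood at 3141 ± 314 and 34.7 ± 3.49 and Cdh1 at 14748 ± 908 and 465 ± 16.2. The summed level of the 5 epithelial markers was 60174 to 66137 in T1 and 37476 to 43409 in T2 samples. The 10 fibroblast markers summed to 227 to 242 in T1 and 998 to 1297 in T2 samples, most of it Pdgfra, while Col3a1, Lum, Pdgfrb and Thy1 were at 0 in every library. Col1a1 and Col1a2 went the other way, with 14, 30 and 25 reads of Col1a1 in the T1 and 1, 0 and 0 in the T2 samples, and 4, 7 and 12 reads of Col1a2 in the T1 samples and 0 in each T2 sample. The 8 leukocyte markers summed to 386 to 463 in T1 and 167 to 204 in T2 samples, with Tyrobp and Cd3e at 0 in every library. Most of the leukocyte sum in T1 cells was Cd14, at 340 ± 30.2 against 83.1 ± 16.9 in T2 cells (SD, n = 3 each), whereas Cd68 had means of 72.9 and 94.6, Coro1a of 1.55 and 5.67, and Ptprc 0 reads in each T1 sample and 5, 6 and 3 in the T2 samples. Endothelial markers summed to at most 15.9 and adipocyte markers to at most 1.86. The part of these marker levels in the FGF differences was not tested.

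Sequences are shown upstream of the GENCODE start of Fgfbp1 and the RefSeq start of Fgfr2. These genes were taken because they had the largest differences in opposite directions among the members. The sequences come from the RefSeq promoter table of GRCm38.p6, which held windows for 8 of the 10 members and none for Fgfr1 and Fgf1. Both genes lie on the minus strand and are printed 5′ to 3′ on that strand. Capitals mark the letters TATAAA, and none of the motifs searched lies in the printed part of Fgfr2. The last bases printed for Fgfbp1 fall inside the first exon of its RefSeq model and before the start of its GENCODE model, whose first base on this strand is 43981779.
Fgfbp1, chr5:43981780-43982049: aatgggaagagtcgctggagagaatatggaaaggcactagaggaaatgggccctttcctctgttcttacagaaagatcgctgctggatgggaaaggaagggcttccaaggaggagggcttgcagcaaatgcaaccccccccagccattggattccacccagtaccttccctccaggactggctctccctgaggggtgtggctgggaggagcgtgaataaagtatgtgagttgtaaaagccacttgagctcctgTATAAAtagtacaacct
Fgfr2, chr7:130266809-130267058: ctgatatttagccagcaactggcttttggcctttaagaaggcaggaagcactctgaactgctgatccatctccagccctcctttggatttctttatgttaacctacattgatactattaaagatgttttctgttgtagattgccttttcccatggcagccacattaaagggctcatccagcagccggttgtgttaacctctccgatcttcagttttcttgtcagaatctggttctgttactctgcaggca

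The first base of TATAAA lay 17 bases before the GENCODE start of Fgfbp1. It falls inside the RefSeq span of the gene, whose first base on this strand is 43981828, and so not ahead of the start in both models. Each window held 300 bases, 250 before and 50 after the start point of its promoter entry. For Fgfbp1, Fgf2 and an extra Fgfr3 window, that point differs from the start of the RefSeq gene span. In the window of Fgfbp1, TATAAA lies after that point. Windows were searched for TATAAA on the sense strand and for the letters TGANTCA, then GGGCGG, then GGAATG and then CACGTG on both strands. Over the 32851 promoter windows of the table, TATAAA stood in 8.32%, TGANTCA in 7.81%, GGGCGG in 35.7%, GGAATG in 14.7% and CACGTG in 7.15%. Among the members with a window, TATAAA stood in those of Fgfbp1 and Fgf21. The windows of Fgfr2, Fgfrl1 and Fgf21 each held CACGTG once, in Fgfr2 after the RefSeq start. GGGCGG stood in those of Fgf2, Fgfr3, Fgfrl1, Fgf21 and Fgfr4, GGAATG in that of Fgfr4, and TGANTCA in none. The windows differed in base composition. That of Fgfbp1 had 53.3% G+C and 4 CpG, that of Fgfr2 43.7% and 4 CpG, and that of Fgfrl1 73.7% and 37 CpG, against medians of 52.7% and 7 over all windows. Such matches are descriptions of letters and not binding sites.

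Fgfbp1, the carrier that releases FGFs from the matrix, was among the most abundant transcripts of T1 cells and was near 0 in T2 cells. The T1 samples had 5292, 5229 and 5932 normalized counts (5001, 5623 and 6078 reads), and the T2 samples 0.979, 1.02 and 0.928, which is 1 read in each. The groups were thus far apart, with little spread in either, at 5484 ± 389 in T1 and 0.977 ± 0.0480 in T2 cells (SD, n = 3 each). The ratio of the read totals was 5623, with a 95% counting interval of 1924 to 27272 set by the 3 reads of T2 cells. Intervals and floors given here cover counting error only, since reads without molecular identifiers are not independent molecules. On the log2(normalized count + 1) scale the difference was 11.44 (SE 0.16), a value that depends on the pseudocount. In these bulk libraries, fewer cells with a transcript and less of it per cell cannot be told apart. Per kilobase of exon the Fgfbp1 level was 2423 ± 172 in T1 cells, rank 304 of the 14245 genes with a read and an annotated length there, higher than 97.9% of them, whereas in T2 cells it was rank 12723 of 14113. On chromosome 5 of mm10 the gene spans 43978858 to 43981828 in RefSeq and 43978858 to 43981779 in GENCODE, and the spans of the other members are given from RefSeq.

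Fgfbp3, the other carrier (chromosome 19, 36917550 to 36919599), was low in both populations. The T1 samples had 23.3, 28.8 and 37.1 normalized counts and the T2 samples 42.1, 32.8 and 30.6. These values overlapped, and the means of 29.7 ± 6.95 and 35.2 ± 6.11 (SD, n = 3 each) differed by -0.25 (SE 0.27) on the log2 scale, T1 minus T2. Per kilobase, Fgfbp3 stood at 16.8 ± 3.92 in T1 and 19.8 ± 3.45 in T2 cells, so in T1 cells Fgfbp1 held most of the carrier transcript and in T2 cells Fgfbp3 did.

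**Figure D1:**
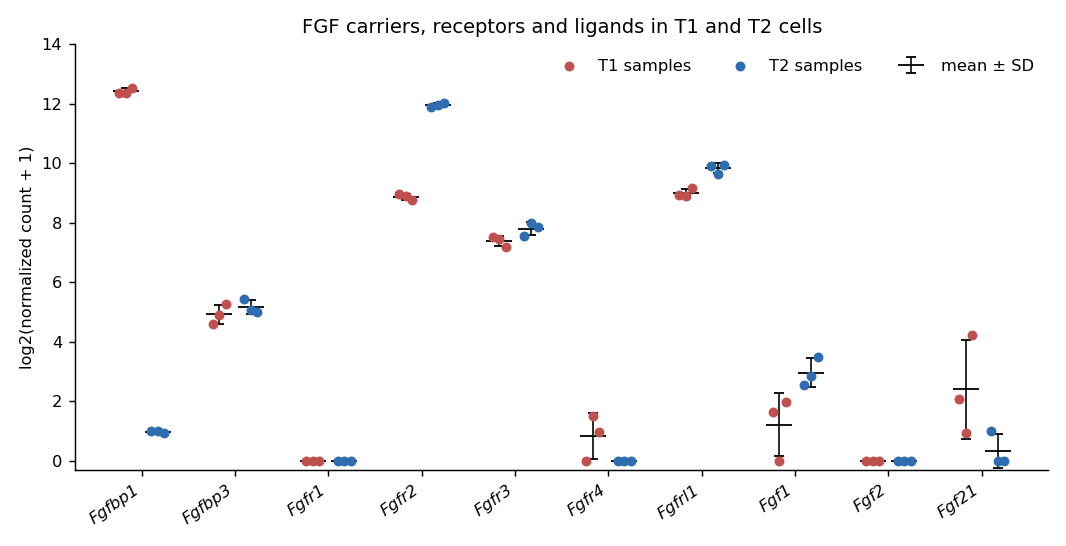
The log2(normalized count + 1) of each member (x axis) in each of the 3 T1 (red) and 3 T2 (blue) samples, with the mean and SD as black lines. Fgfbp1 is high in every T1 sample and near 0 in every T2 sample, Fgfr2 is higher in T2 cells, Fgfr3 and Fgfrl1 differ less, and the ligands lie near the bottom of the scale.

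Among the receptors, Fgfr2 went the other way from Fgfbp1. Fgfr2 encodes a receptor tyrosine kinase whose IIIb and IIIc splice forms prefer different ligands, and these forms cannot be told apart in gene-level counts. The T1 samples had 497, 476 and 433 normalized counts and the T2 samples 3786, 3952 and 4156. All T2 values lay above all T1 values, at 3965 ± 186 against 469 ± 32.6 (SD, n = 3 each), an 8.45-fold higher level in T2 cells and a log2 difference, T1 minus T2, of -3.08 (SE 0.09). The gene spans chromosome 7 from 130162451 to 130266808 in RefSeq, whereas its GENCODE model reaches 133123350. The level of Fgfr2 per kilobase ranked 8399 of 14245 genes in T1 and 2790 of 14113 genes in T2 cells. These ranks depend on the length used, the 10328 bases of exon of the GENCODE model, whose longest transcript has 4429 bases.

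Fgfrl1, a receptor of the family that lacks the tyrosine kinase domain (chromosome 5, 108694229 to 108706950), was also higher in T2 cells. Its T1 samples had 485, 472 and 574 normalized counts and its T2 samples 958, 797 and 985. The groups did not overlap, and the means of 510 ± 55.7 and 913 ± 102 (SD, n = 3 each) were 1.79-fold apart, with a log2 difference of -0.84 (SE 0.12).

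Fgfr3, another receptor tyrosine kinase (chromosome 5, 33721724 to 33737068), had 181, 175 and 144 normalized counts in the T1 samples and 187, 255 and 229 in the T2 samples. The groups did not overlap, although the highest T1 and the lowest T2 sample lay close together. The T2 mean of 224 ± 34.3 was 1.34-fold the T1 mean of 167 ± 19.5 (SD, n = 3 each), and the log2 difference was -0.42 (SE 0.17). An annotated transcript on the other strand overlaps Fgfr3, and the strand setting of the counting is not given in the sources used here.

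The remaining receptor tyrosine kinases were at or near 0. Fgfr4 (chromosome 13, 55152818 to 55168759) had 0, 2 and 1 reads in the T1 samples and 0 in each T2 sample, so no fold is given. Fgfr1 (chromosome 8, 25518759 to 25575718) was listed at 0 in all 6 samples, and an annotated antisense gene overlaps it on the other strand. Ndufs5, a subunit of respiratory complex I that every cell uses, was listed at 0 in all samples too (it was looked up after its values were seen), so an entry of 0 in this table may be a gene that was not counted. The floor of 3 reads corresponded to 2.78 to 3.17 normalized counts over the libraries.

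Compared per kilobase of exon, the order of the receptors differed between the populations. Fgfr1 entered the order, the sums and the shares at its listed 0, which may be a gene that was not counted. A counted Fgfr1 could change all of them. In T1 cells Fgfrl1 came first with 183 ± 20.03 normalized counts per kilobase, then Fgfr2 with 45.4 ± 3.16 and Fgfr3 with 23.3 ± 2.73, and the sample ranges of neighbours in this order (169 to 206, 42.0 to 48.2 and 20.2 to 25.3) did not overlap. In T2 cells Fgfr2 came first with 384 ± 17.97, ahead of Fgfrl1 with 328 ± 36.5 and Fgfr3 with 31.3 ± 4.79. There the ranges of Fgfr2 (367 to 402) and Fgfrl1 (286 to 354) lay close but apart. The summed level of the 5 receptor genes was 252 ± 14.6 in T1 and 743 ± 42.2 in T2 cells.

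As a share of that sum, Fgfr2 made up 19.4%, 19.2% and 15.6% in the T1 samples and 49.7%, 54.3% and 51.0% in the T2 samples. Fgfrl1 made up 70.3%, 70.5% and 76.8% in T1 and 46.7%, 40.6% and 44.9% in T2 samples. The mean shares were 18.1% ± 2.14 and 51.7% ± 2.35 for Fgfr2, 72.5% ± 3.68 and 44.1% ± 3.12 for Fgfrl1, and 9.29% ± 1.54 and 4.22% ± 0.767 for Fgfr3 (SD, n = 3 each). The size of these shares depended on the gene length used. With the longest annotated transcript as the length, an alternative chosen after seeing the data, Fgfr2 made up 29.1% of the sum in T1 and 66.8% in T2 cells, and Fgfrl1 59.99% and 29.2%.

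**Figure D2:**
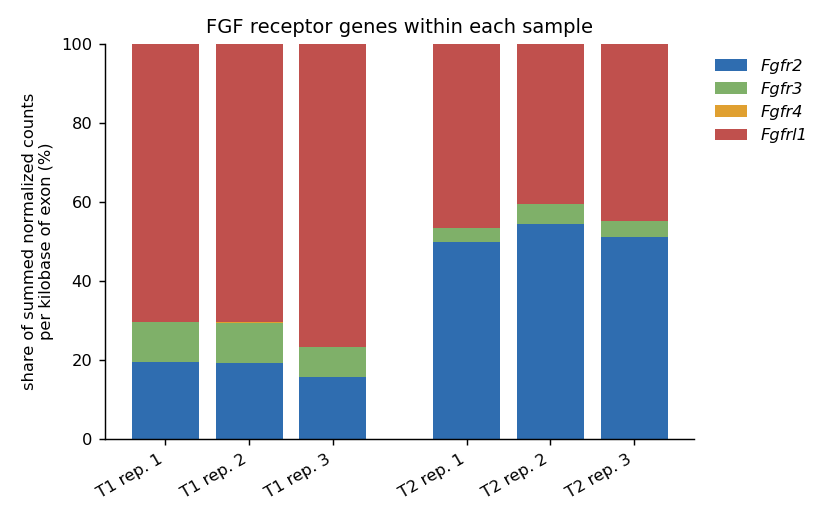
The share (%) of each FGF receptor gene in the summed normalized counts per kilobase of exon, stacked to 100% in each of the 6 samples. Fgfrl1 fills most of each T1 column, and Fgfr2 is the largest part of each T2 column. Fgfr1 enters at its listed 0.

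The 3 member ligands had few or no counted reads in both populations. Fgf1, a ligand that binds all FGF receptors (chromosome 18, 38838672 to 38929470), had 2, 0 and 3 reads in the T1 samples and 5, 6 and 11 in the T2 samples. The T2 reads were the more numerous in every pairing of samples, and the T1 to T2 ratio of totals was 0.230 with a 95% counting interval of 0.0679 to 0.621. The span of Fgf1 overlaps Arhgap26 on the other strand. Fgf21, an endocrine ligand that acts through the co-receptor Klb (chromosome 7, 45613890 to 45615490), had 3, 1 and 18 reads in the T1 samples and 1, 0 and 0 in the T2 samples. T1 replicate 3 alone held 18 of the 22 T1 reads, and the groups overlapped at 1 read. The ratio of totals was 22.2 (95% counting interval 3.59 to 917), and without T1 replicate 3 the T1 mean was 2.05 normalized counts, from 4 reads. Fgf2, a matrix-bound ligand (chromosome 3, 37348477 to 37410106), was listed at 0 in all samples, and its span overlaps Nudt6 on the other strand.

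The other secreted ligands were no more abundant in the counted reads. Of the 18 secreted FGF genes looked up, members included, 11 had a read in some library and 7 had none. Together they had 17, 17 and 28 reads in the T1 and 28, 18 and 29 in the T2 samples, while the receptor genes had 1099, 1209 and 1181 reads in T1 and 5035, 4887 and 5787 in T2 samples. The highest ligand value in any sample was 17.6 normalized counts, of Fgf21 in T1 replicate 3. An entry of 0 may be a gene that was not counted. The ligand sums may thus leave out transcripts of the 7 genes with no read, Fgf2 among them.

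In all, 5 of the 10 members had a mean of at least 10 normalized counts and entered the fit over 11512 genes (Fgfbp1, Fgfbp3, Fgfr2, Fgfr3 and Fgfrl1). Another 3 had reads but fell under that filter, and 2 had none. At an adjusted p under 0.01 (limma, Benjamini-Hochberg), 1 member was higher in T1 cells (25.1% of all tested genes) and 2 were lower (24.4%), namely Fgfbp1, and Fgfr2 and Fgfrl1. With a log2 difference above 2 in size as well, 1 member was higher (4.17% of all tested genes) and 1 lower (4.2%). The groups did not overlap for 4 of the 5, as they did not for 68.1% of all tested genes. The members were chosen from this contrast, so nothing is read from these counts.

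The genes whose pattern over the 6 samples lay nearest to that of Fgfbp1, by the Euclidean distance of centred log2 values, were Dsg2 (distance 1.05), Dsp (1.68), Cldn4 (2.16), Moxd1 (2.35) and Krt17 (2.42). Dsg2 and Dsp are desmosome components, Cldn4 is a tight junction protein and Krt17 a keratin. Each was high in the T1 samples and had at most 8 reads in any T2 sample, and the log2 differences ran from 9.61 for Krt17 to 10.99 for Dsg2. The nearest to Fgfr2 were Cx3cl1 (0.207), Dab2 (0.231), Ghr (0.262), Car13 (0.288) and S100a4 (0.299), which encode a chemokine, an endocytic adaptor, the growth hormone receptor, a carbonic anhydrase and a calcium-binding protein. Their log2 differences lay between -3.18 for Ghr and -2.90 for Car13.

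The wider pathway was followed in lists of genes that are no members, and over these the comparison of T1 with T2 cells was tested. The lists were chosen with earlier results of these data known. The shares called and p-values of every list are therefore descriptions and no independent evidence. Of 107 such genes, 22 had no read, 16 fell under the filter and 69 were tested. Among the tested, 16 were higher and 30 lower in T1 cells, which is 66.7% against 49.5% of all genes tested, with a median log2 fold change of -0.23 against -0.0055 over all genes. The response and feedback list alone held 14 of the 30 lower and 2 of the 16 higher genes, so the tilt is not a trait of every list.

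**Figure D3:**
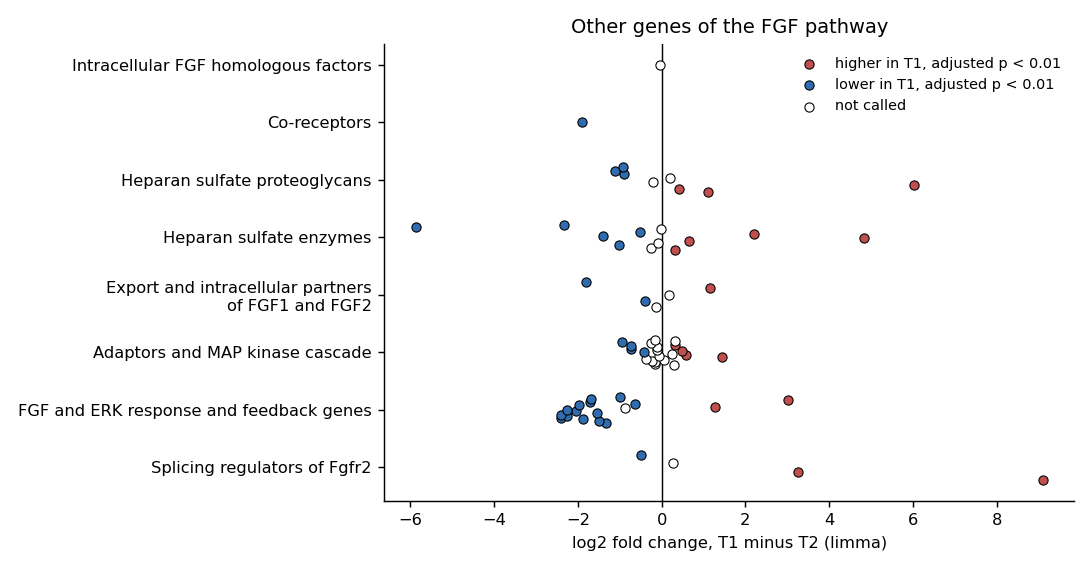
The log2 fold change, T1 minus T2, of each tested gene (circles) in 8 lists of the FGF pathway, in red where higher and in blue where lower in T1 cells at a limma adjusted p under 0.01, and open where not called. Most response and feedback genes lie left of 0, and the lists of heparan sulfate genes spread to both sides.

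Of 5 co-receptor and receptor-binding genes, the klotho genes Kl and Klb had no more than 2 reads in any library, and Flrt3 was the gene with enough reads to test. Flrt3, a membrane protein that binds FGF receptors, had 238, 320 and 181 normalized counts in the T1 and 779, 1067 and 881 in the T2 samples. It was lower in every T1 sample, with a log2 fold change of -1.91 (SE 0.20, limma adjusted p = 1.55e-05).

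Heparan sulfate proteoglycans carry the sugar chains that FGFs and their receptors share. Of 12, 8 were tested, 3 were higher and 3 lower in T1 cells (75.0% called, against 49.5% of all genes), and the median was -0.0082. The syndecans Sdc2, Sdc3 and Sdc4 were lower in T1 cells, with log2 fold changes of -0.90, -1.11 and -0.92. The remaining syndecan, Sdc1, was not called, at 4867 ± 651 in T1 and 4261 ± 428 in T2 cells (SD, n = 3 each, log2 fold change 0.19). Sdc1 lies outside the naming rule and was chosen after its values were seen. Agrn, a large basement membrane proteoglycan, was higher in T1 cells at 9550 ± 883 against 4471 ± 494 (SD, n = 3 each, log2 fold change 1.10, limma adjusted p = 5.42e-06). Gpc4, a glypican anchored to the membrane by a lipid, had 72.0, 50.2 and 71.2 normalized counts in the T1 samples and was at 0 in every T2 sample, at least 21.997-fold higher in T1 cells against a floor of 3 reads per library (limma adjusted p = 5.80e-07). Gpc1 was the third proteoglycan higher in T1 cells, with a log2 fold change of 0.42 (it lies outside the naming rule and was chosen after its values were seen). Its limma adjusted p was 0.00487. With quantile normalization the list held 2 higher genes instead of 3. The same was seen without T1 replicate 1, T2 replicate 1 or T2 replicate 2, while Agrn and Gpc4 kept their calls.

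The enzymes that build and trim heparan sulfate went both ways as well. Of 22, 12 were tested, 4 were higher and 5 lower in T1 cells (75.0% called, against 49.5% of all genes), and the median was -0.18. The number higher was 3 with any 1 sample left out, with the replicate block and without the filter on low counts. Ndst3, an N-deacetylase and N-sulfotransferase, had 19.0, 12.1 and 7.81 normalized counts in the T1 and 724, 767 and 831 in the T2 samples, a log2 fold change of -5.87 (SE 0.27, limma adjusted p = 5.75e-08). The chain-modifying sulfotransferases moved apart. Hs2st1, which sulfates the 2-O position, was lower in T1 cells at 2882 ± 38.4 against 7664 ± 180, and Hs6st1, which sulfates the 6-O position, was higher at 3433 ± 715 against 732 ± 58.0 (SD, n = 3 each). Their log2 fold changes were -1.41 and 2.21, with limma adjusted p-values of 5.88e-08 and 3.55e-07. Sulf2, an extracellular enzyme that removes 6-O sulfates, was lower in T1 cells (log2 fold change -2.32). Hpse, the heparanase that cuts heparan sulfate chains, had 36, 41 and 45 reads in T1 and 0, 2 and 0 in T2 samples, a ratio of 61.6 with a 95% counting interval of 16.7 to 515 (limma adjusted p = 1.85e-05).

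Signalling components between the receptor and the nucleus went both ways. All 21 adaptor and MAP kinase cascade genes were tested, and 8 were called (38.1% against 49.5% of all genes), 4 higher and 4 lower in T1 cells, with a median of -0.12. Gab1, a docking adaptor, was higher in T1 cells at 418 ± 90.5 against 153 ± 24.4 (SD, n = 3 each, log2 fold change 1.43, SE 0.19, limma adjusted p = 9.19e-05). The adaptor Shc1, the kinase Mapk3 and the phospholipase Plcg1 were lower, with log2 fold changes of -0.94, -0.73 and -0.72. Hras was higher by a log2 fold change of 0.57, with a limma adjusted p of 0.00247 that missed 0.01 without T1 replicate 1 (0.0125), T1 replicate 2 (0.0120) or T2 replicate 3 (0.0140), and without any of these the list held 2 higher genes instead of 4.

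Genes that FGF and ERK signalling is known to induce, many of them feedback inhibitors, were mostly lower in T1 cells. Many receptor tyrosine kinases other than FGF receptors induce these genes too. Of 18 genes 17 were tested, 2 were higher and 14 lower in T1 cells (94.1% called, against 49.5% of all genes), and the median log2 fold change was -1.70, within a range of -2.41 to 3.01. The genes of lower level in T1 cells included ETS transcription factors, Sprouty and Spred inhibitors and dual specificity phosphatases.

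Dusp6, a phosphatase of ERK, had 807, 1047 and 1035 normalized counts in the T1 and 5887, 3733 and 5785 in the T2 samples. All T1 values lay below the T2 values, with a log2 fold change of -2.39 (SE 0.17, limma adjusted p = 1.12e-06). Etv1, an ETS factor, stood at 280 ± 61.0 in T1 and 1478 ± 184 in T2 cells (SD, n = 3 each, log2 fold change -2.41, limma adjusted p = 5.76e-07). The immediate early gene Egr1 was lower by a log2 fold change of -2.26 (limma adjusted p = 0.0015). Fos, another immediate early gene, had 479, 4333 and 1106 normalized counts in the T1 and 4518, 8535 and 6568 in the T2 samples, so T1 replicate 2 reached almost to the lowest T2 sample. Its log2 fold change of -2.26 (SE 0.61, limma adjusted p = 0.00815) became -1.73 with edgeR (adjusted p = 0.0270), and the call was also lost in DESeq2 (adjusted p = 0.0684) and without each sample in turn except T1 replicate 2 (limma adjusted p 0.0169 to 0.0357).

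Spry1, a Sprouty inhibitor of receptor tyrosine kinase signalling, ran against most of the list. The T1 samples had 1485, 903 and 2166 normalized counts and the T2 samples 181, 154 and 195. All T1 values were higher, with a log2 fold change of 3.01 (SE 0.26, limma adjusted p = 3.96e-06), while its relatives Spry2 and Spry4 were lower in T1 cells at -1.70 and -0.98 (both relatives were picked with their values in view). The other gene of the list that was higher in T1 cells was Myc, named for the same reason, at 7445 ± 1336 against 3063 ± 329 (SD, n = 3 each, log2 fold change 1.27).

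**Figure D4:**
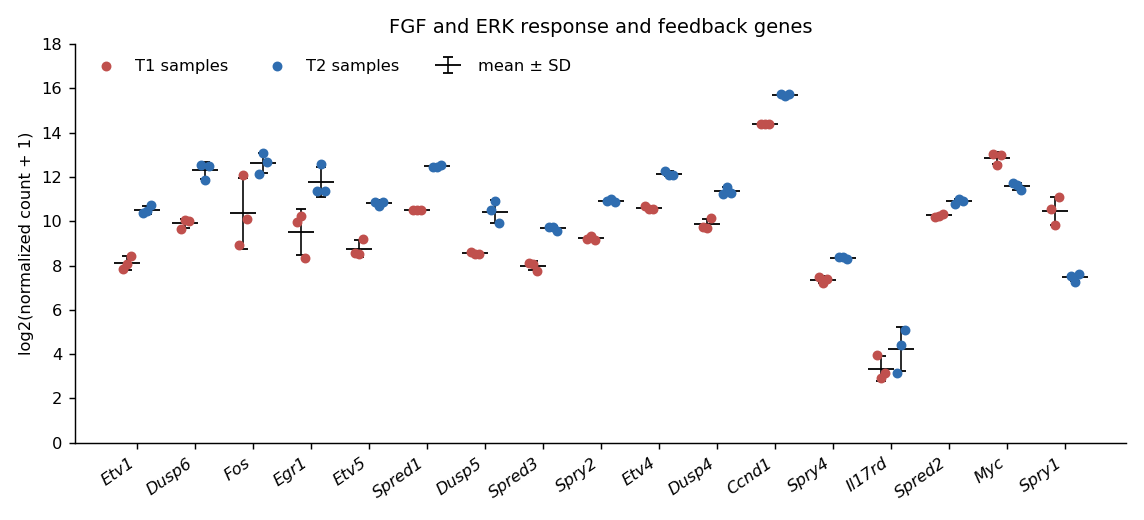
The log2(normalized count + 1) of the 17 tested response and feedback genes (x axis, by log2 fold change) in each T1 (red) and T2 (blue) sample, with the mean and SD as black lines. The blue points lie above the red for most genes, Il17rd overlaps, and Myc and Spry1 at the right show the opposite order.

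Of 4 regulators of the choice between the IIIb and IIIc forms of Fgfr2, 2 were higher and 1 was lower in T1 cells. Esrp1 and Esrp2 promote the epithelial IIIb form. Esrp1 had 637, 749 and 704 reads in the T1 and 0, 0 and 1 in the T2 samples, a ratio of 2111 with a 95% counting interval of 378 to 83422 (limma adjusted p = 7.52e-09). Esrp2 had 970, 934 and 866 normalized counts in the T1 and 108, 118 and 68.7 in the T2 samples, a log2 fold change of 3.26 (SE 0.19, limma adjusted p = 2.80e-07). Rbfox2, a splicing factor found in most tissues, was lower in T1 cells at -0.49. The splice form of Fgfr2 itself was not measured by these gene counts.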

How the data were processed

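RNA from 3 replicates of T1 and 3 of T2 cells was sequenced from poly(A)-selected TruSeq libraries as paired-end reads. The authors removed adapters with Trimmomatic, mapped the reads on mm10 by TopHat2, obtained gene counts from HTSeq and normalized these by the DESeq2 median of ratios. The deposited signal of a gene is thus its reads over the size factor of that sample. The annotation, strand setting and versions are not given in the sources used here. Whole reads were recovered for 100% of values (tolerance 0.01 read). Of 24129 names, 27 had become dates, and 4 entries whose date names more than 1 gene were left out.

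T1 and T2 cells were compared with limma 3.58.1 (R 4.3.3) with a variance trend on log2(normalized count + 1), over genes whose mean reached 10 normalized counts, with Benjamini-Hochberg adjustment. Genes were called at an adjusted p under 0.01, and past both filters also at a log2 fold change above 2 in size. The tests were checked on simulated data. Counting intervals are exact at 95%. With 3 against 3 samples the smallest exact permutation p is 0.1. Exonic lengths and positions came from GENCODE M21 and RefSeq (GRCm38.p6). Overlapping genes were looked up for the members only. The members and lists were chosen with earlier results of these data known. Apart from genes said to be singled out after their values were seen, the text names all members, up to 5 genes per list with the largest called log2 fold change and groups apart, the marker genes, the 5 genes nearest in pattern to Fgfbp1 and Fgfr2, and the protein-coding neighbours of Fgfbp1. Alternatives were edgeR 4.0.16 and DESeq2 1.42.0 on the recovered reads, other pseudocounts, filters, scalings and lengths, the replicate block, and each replicate left out. One gene that the naming rule takes is not reported here.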

Additional observations from a re-analysis of the deposited data

How the results depend on the processing

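None of the 5 tested members changed direction under any alternative run, and the other members were not followed through them. Of their 65 values, 60 moved by less than the spread between replicates. The other 5 were of Fgfbp1, whose log2 difference was 11.86 with a pseudocount of 0.5, 9.84 with 5, 11.03 with quantile normalization, 12.29 in edgeR and 12.46 in DESeq2, as 1 read per T2 library makes it depend on the offset. Without division by length, Fgfr2 made up 40.9% of receptor counts in T1 and 77.7% in T2 cells, Fgfr3 14.5% in T1 cells, and Fgfrl1 44.5% and 17.9%. With the longest transcript as the length, the shares were 29.1% and 66.8% for Fgfr2 and 59.99% and 29.2% for Fgfrl1. Of 351 values of the 27 pathway genes that the naming rule takes, 341 kept the call, 10 lost it (those of Fos and Hras) and none turned. Genes named outside that rule, Gpc1 among them, are not in these values. Without the filter on low counts, 1 co-receptor gene was called higher.

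With each replicate left out in turn, 2405 to 2896 of all genes were higher and 2251 to 2901 lower in T1 cells, and 12 to 16 and 29 to 30 of the pathway genes. Samples with the same replicate number had correlations of deviations of 0.0575, 0.172 and 0.104, and each T1 sample correlated best with its own number, but T2 replicate 1 did so with T1 replicate 3 (0.0719), and nothing in the labels ties the numbers together. With the replicate block 2926 genes were higher and 2854 lower, and 15 and 30 of the pathway genes. At this depth, members under 3 reads per library could not be compared.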

Other observations

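Of the 4 intracellular FGF homologous factors, which resemble FGFs but are not secreted, Fgf11 was the gene with enough reads to test, at 38.2 ± 10.99 normalized counts in T1 and 38.2 ± 4.15 in T2 cells (SD, n = 3 each), and it was not called. Of 6 genes that take part in the export or intracellular handling of FGF1 and FGF2, 5 were tested, 1 was higher and 2 were lower in T1 cells. S100a13, which binds FGF1 during its release, was lower in T1 cells at 154 ± 8.58 against 547 ± 70.0 (log2 fold change -1.81, limma adjusted p = 1.60e-06). Lrrc59, which takes part in the nuclear import of FGF1, was higher at 12474 ± 847 against 5617 ± 566 (log2 fold change 1.15, limma adjusted p = 2.19e-06). The ligand Fgf1 itself had at most 11 reads in any library.

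Next to Fgfbp1 on chromosome 5, the nearest protein-coding gene toward higher coordinates was Prom1, 11841 bases away, with 8, 1 and 2 reads in the T1 samples and 0 in each T2 sample, under the filter for testing. The nearest toward lower coordinates, Gm7879, was 64941 bases away and was not analysed here.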
